A study of Mus musculus with 9 samples.

Results

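The mouse mitochondrial chromosome carries 37 genes, and all 37 were found in the count table as the rows whose gene symbol begins with mt-, out of 53465 genes. Of these, 13 encode proteins (7 subunits of complex I, 1 of complex III, 3 of complex IV and 2 of complex V), 2 encode the ribosomal RNAs (rRNAs) of the mitochondrial ribosome and 22 encode transfer RNAs (tRNAs). In the annotation, 28 lie on the plus strand of the chromosome, which is the sense of the heavy-strand transcript, and 9 on the minus strand (mt-Nd6 and 8 tRNA genes).

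Whole brains of 9 male C57BL/6 mice, which were 7 weeks old when the study began, gave a separate poly(A)-enriched, non-strand-specific library each. CON mice received saline. DNP mice, the model of diabetic neuropathic pain, ate chow with 60% fat for 4 weeks, were injected on each of 7 days with 50 mg/kg streptozotocin, which kills the insulin-making cells of the pancreas, and then received saline. BAC mice went through the same diet and streptozotocin and were then given 8 mg/kg baclofen daily for 7 days in place of saline, a drug that activates the GABA-B receptor. Diabetic mice entered the study only if both fasting glucose and pain thresholds met its criteria, so DNP and BAC are selected animals, and no group received the diet, streptozotocin or baclofen alone. Each group held 3 libraries, with 13107382 to 16008129 counts per library.

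Mitochondrial DNA is transcribed from both strands into long precursors that span many genes. The tRNAs lie between most of the other genes, and cutting them out at both ends releases the mRNAs and rRNAs. The mRNAs encode core subunits of the respiratory chain and of ATP synthase, which work together with subunits made from nuclear genes, and neurons depend strongly on the ATP that these complexes supply. Most mitochondrial mRNAs carry short poly(A) tails, whereas mature tRNAs do not, so a poly(A)-enriched library does not sample the 3 classes alike. The transcripts of mt-Co3, mt-Cytb and mt-Nd4 end in the first base of a stop codon that polyadenylation completes. Their last 13 bases are shown because they mark the mRNAs whose reading frame ends only in the tail, with that base in capitals (GENCODE M21 transcripts, GRCm38):
mt-Co3, ending at chrM:9390: tgatgaggatctT
mt-Cytb, ending at chrM:15288: aaattatatccaT
mt-Nd4, ending at chrM:11544: ggcctgacaataT

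Neighbouring genes overlap at several places, and a read from such bases belongs to both. The longest overlap is the 43 bases shared by mt-Atp8 and mt-Atp6 (chrM:7927-7969, plus strand, with the first codon of mt-Atp6 in capitals). The 14 bases shared by mt-Nd5 and mt-Nd6 (chrM:13552-13565, written on the plus strand) are read in opposite directions by the 2 genes, which a library without strand information cannot separate.
mt-Atp8 and mt-Atp6: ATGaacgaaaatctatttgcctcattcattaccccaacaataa
mt-Nd5 and mt-Nd6: ttaatctcgagtaa

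A second source of ambiguity lies in the nuclear genome. A stretch of chromosome 1 (chr1:24611535-24616197) holds 7 annotated pseudogenes that match chrM:6390-11042, from the last part of mt-Co1 to the first part of mt-Nd4. Gm10925 is identical to mt-Atp6 over its 678 bases, Gm28437 to mt-Co3 over 783, Gm28661 to mt-Co2 over 681, Gm28439 to mt-Nd4 over 876 and Gm10222 to mt-Nd4l over 294. The other two differ from the mitochondrial sequence at 1 base each. Gm28438 (345 bases) carries T3C relative to mt-Nd3, and Gm29216 (492 bases, of which 98.2% aligned) carries A1066T relative to mt-Co1, with positions counted from 1 at the first base of the mitochondrial gene, the mitochondrial base first and the copy's base last. Which bases these mice carry there was not examined. The windows are shown because there the reference sequences of copy and mitochondrial gene differ, with the differing base in capitals (positions chrM:9459-9481 and chrM:6390-6413):
mt-Nd3: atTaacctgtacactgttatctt
Gm28438: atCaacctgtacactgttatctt
mt-Co1: ggaAttgttttatccaactcatcc
Gm29216: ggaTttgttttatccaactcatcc

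The copies received large counts. Gm10925 had 58488, 42460 and 51997 counts in the CON libraries (replicates 1, 2 and 3), 65636, 77370 and 75151 in DNP and 58318, 81486 and 65791 in BAC. mt-Atp6 had 51001, 38244 and 47782 counts in CON, 58811, 66888 and 67285 in DNP and 53728, 73222 and 57791 in BAC. The ratio of copy to mitochondrial gene was therefore 1.09 to 1.16 in all 9 libraries. For the other full-length pairs it was 0.982 to 1.09 for Gm28661 and mt-Co2, 1.16 to 1.31 for Gm28437 and mt-Co3, 1.02 to 1.10 for Gm10222 and mt-Nd4l, and 1.20 to 1.48 for Gm28438 and mt-Nd3. Gm29216, which matches only the end of mt-Co1, had 0.139 to 0.176 counts per mt-Co1 count, and Gm28439, which matches the start of mt-Nd4, had 0.334 to 0.384 per mt-Nd4 count. Another 4 copies with 95.2% to 97.6% identity took few counts: Gm13340, Gm13339 and Gm13341 on chromosome 2 and Gm4076 on chromosome 13 stayed at or below 0.0146 counts per count of their closest mitochondrial gene. All copies together had 27.1 to 30.1 counts per 100 mitochondrial counts, and how a read matching both loci was assigned is not given in the sources used here. Counts of a mitochondrial gene inside the copied stretch and of its copy on chromosome 1 cannot be told apart.

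**Figure D1:**
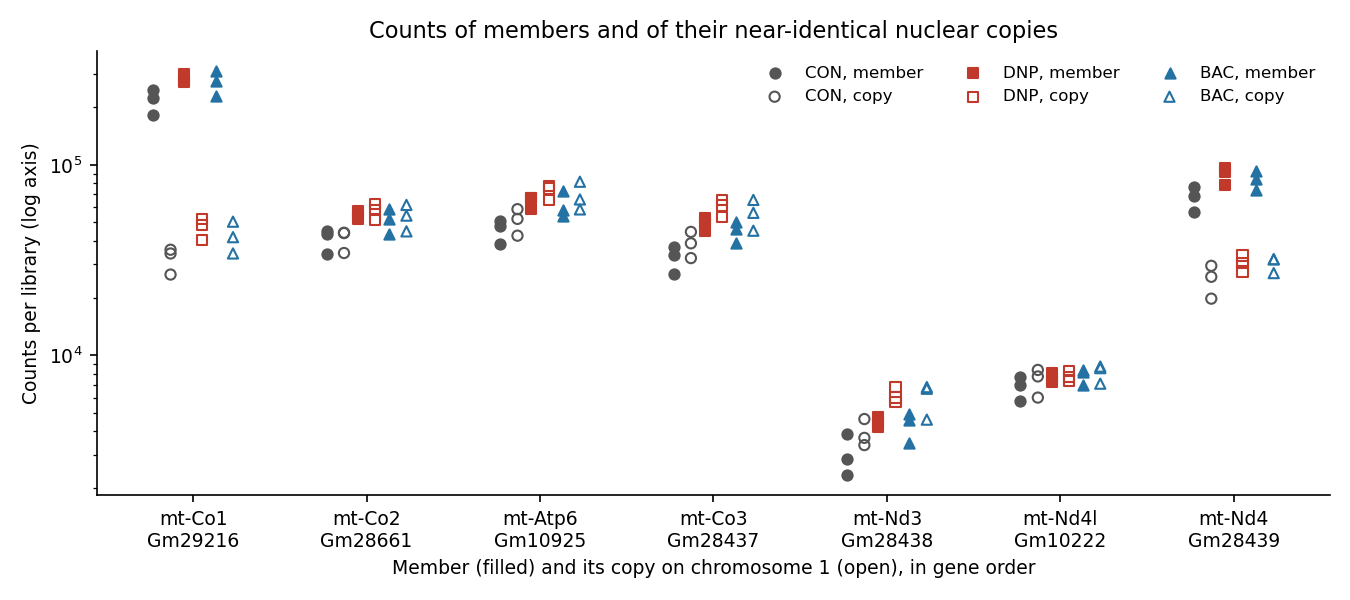
Counts per library on a log axis for the 7 mitochondrial genes with a copy on chromosome 1 (filled) and for the copy (open), with circles for CON, squares for DNP and triangles for BAC. Except for the partial copies Gm29216 and Gm28439, the copies lie at 0.982 to 1.48 times the count of the mitochondrial gene in each library.

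Mitochondrial genes took a large part of each library. mt-Co1, which encodes the catalytic subunit of cytochrome c oxidase, had more counts than any other gene in all 9 libraries, and 10 of the 20 genes with the most counts were mitochondrial, with 4 of the nuclear copies beside them. As a share of all counts, mitochondrial genes took 5.18%, 4.34% and 5.36% in the CON libraries, 6.68%, 7.01% and 6.70% in DNP and 5.94%, 7.23% and 6.10% in BAC. Every DNP and every BAC library lay above the highest CON library, while DNP and BAC overlapped. The mean share in DNP was 1.37 times that in CON, and the mean share in BAC was 0.945 times that in DNP. The latter difference was -0.38 percentage points. Leaving out a single BAC mouse gave -0.13 (replicate 1), -0.78 (replicate 2) or -0.21 (replicate 3). The difference was 0.37, in the opposite direction, when all 3 libraries with brainstem and spinal cord markers (DNP replicate 1, BAC replicate 1 and BAC replicate 3) were left out. That leaves BAC replicate 2 alone, the library with the highest share (7.23%), against DNP replicates 2 and 3. The 13 mRNAs alone took 4.07% to 4.85% in CON, 5.99% to 6.34% in DNP and 5.55% to 6.55% in BAC, which keeps the same separation. With the nuclear copies added the share was 5.55% to 6.81% in CON, 8.54% to 9.12% in DNP and 7.65% to 9.33% in BAC. No test was made on these shares, which sum over the genes described. In bulk tissue, a higher share can come from more mitochondrial RNA per cell, from another mix of cells or from less of the other RNA, and these cannot be told apart.

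**Figure D2:**
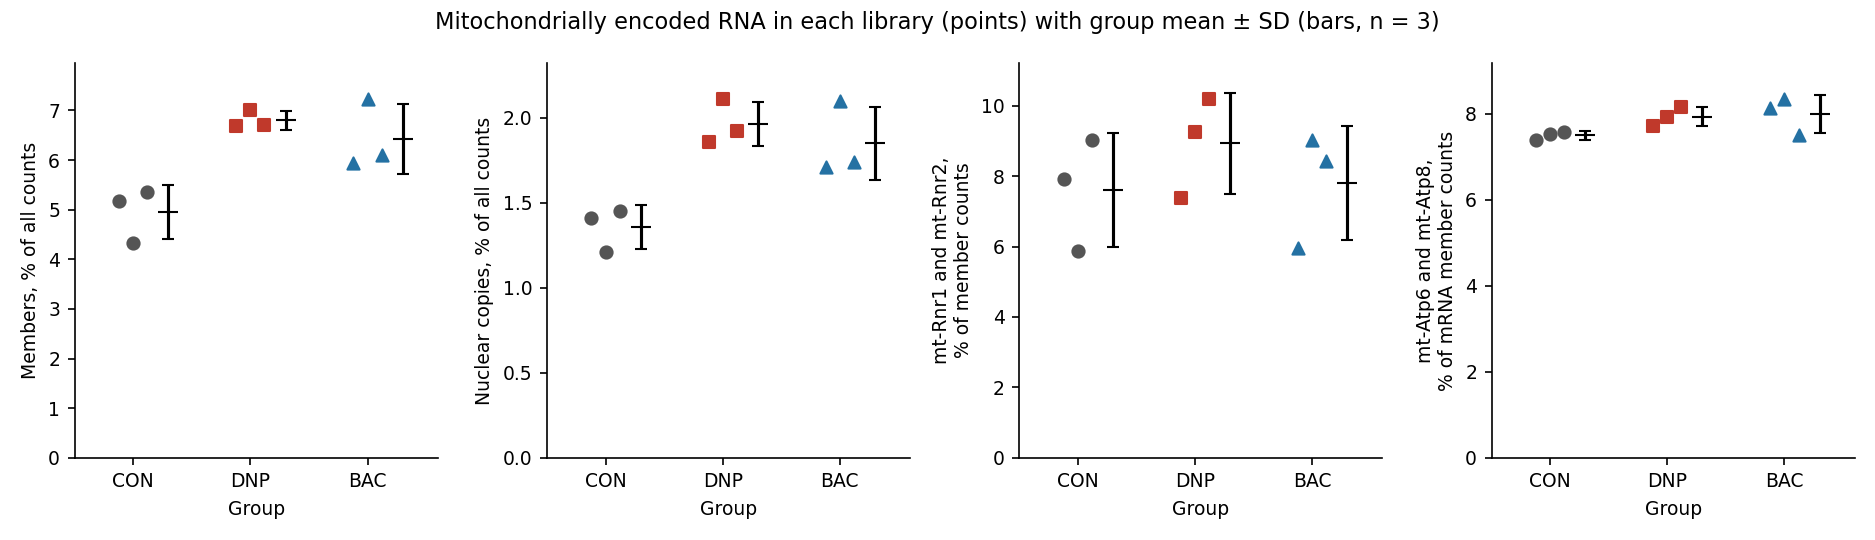
Points show each library and bars the group mean ± SD (n = 3) for the share of all counts on mitochondrial genes, the share on nuclear copies, the rRNA share of mitochondrial counts and the complex V share of mitochondrial mRNA counts, all in percent. The first 2 shares are lower in each CON library than in any DNP or BAC library, and the rRNA share overlaps between groups. The complex V share is higher in each DNP library (7.72% to 8.16%) than in any CON library (7.39% to 7.59%). As a share of FPKM, which is not plotted, it overlapped (14.55% to 14.86% in DNP, 13.85% to 14.58% in CON).

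Gene-wise tests used edgeR's quasi-likelihood test with TMM normalization over all 18501 genes that passed the filter on low counts, of which 36 were mitochondrial. Only mt-Ts2, a serine tRNA gene, did not pass. The question of the first comparison is how brains of DNP mice differ from those of CON mice. All 36 mitochondrial genes had a higher fitted level in DNP, with a median log2 fold change of 0.49, against 0.01 over all genes. None passed an adjusted p of 0.05, and neither did any other gene (0% of all genes), the smallest adjusted p being 0.327 among mitochondrial genes and 0.294 over all genes. At an unadjusted p under 0.05, 15 of the 36 were higher, where 5.71% of all genes were, and none was lower, where 5.46% were. The number higher fell to 5 without CON replicate 2, 8 without DNP replicate 1, 5 without DNP replicate 2 and 6 without DNP replicate 3. The 3 DNP values lay above the 3 CON values for 21 of the 36, against 9.59% of all genes. DESeq2, run as an alternative, put 1 of the 36 past its adjusted threshold as higher, mt-Co3, against 0.800% of all genes. The mitochondrial genes come from a few shared precursors and are not independent of each other, so these counts are not 36 separate results.

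**Figure D3:**
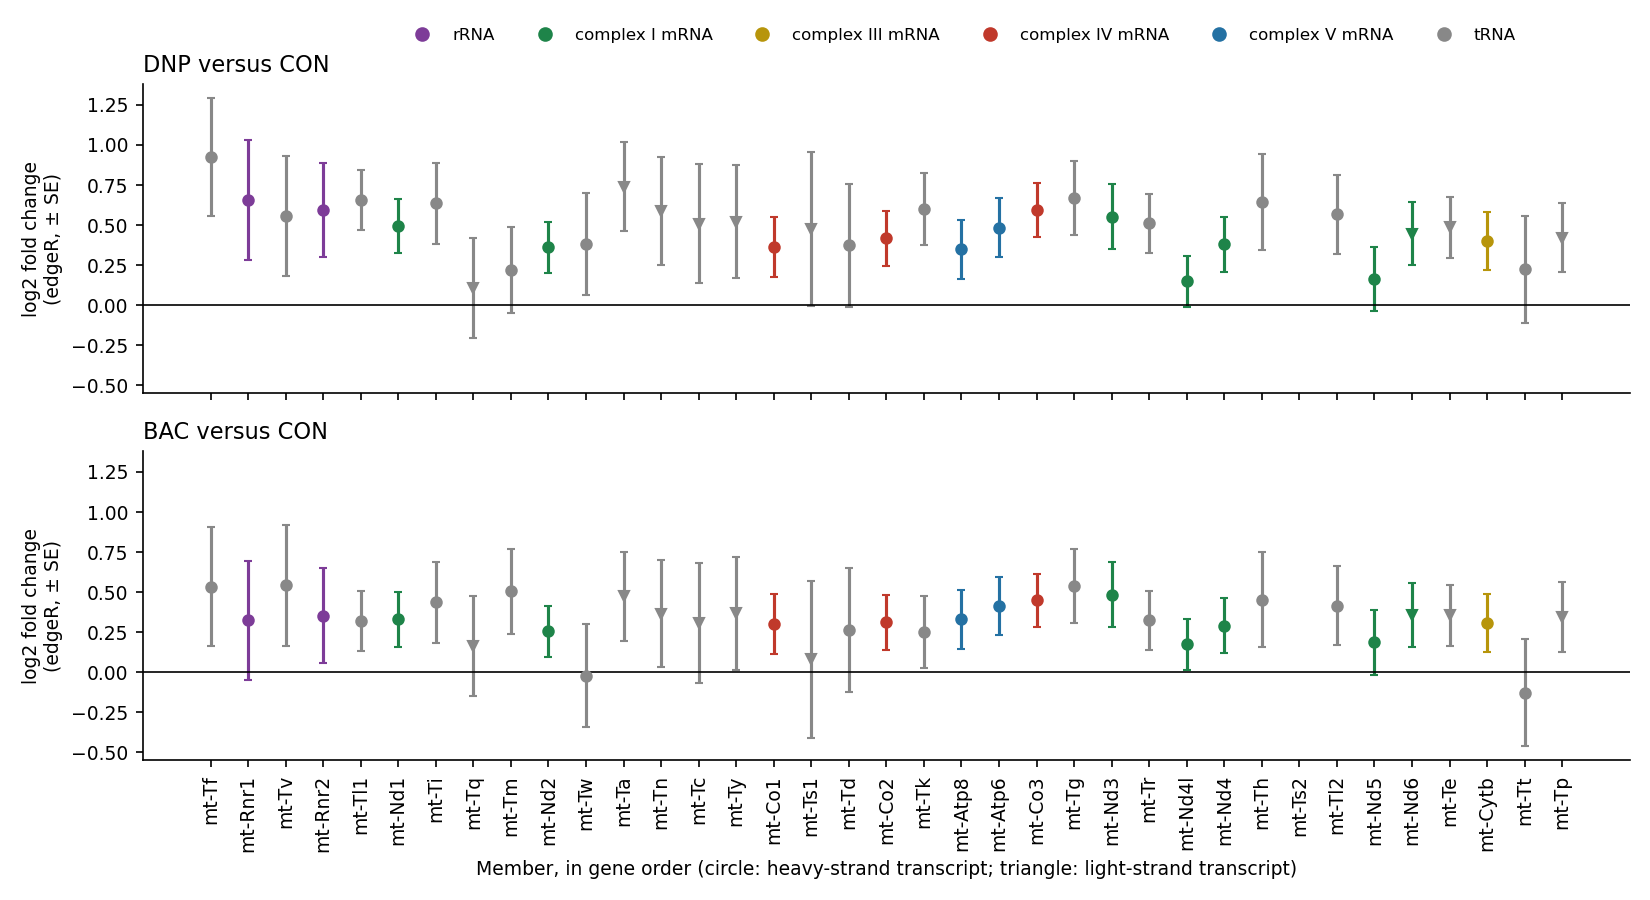
Log2 fold change with its SE (edgeR) of the 36 tested mitochondrial genes in gene order, for DNP versus CON (top) and BAC versus CON (bottom), coloured by class. All 36 points are above 0 in the top panel and 34 in the bottom panel, with mt-Nd4l and mt-Nd5 the lowest of the mRNAs in the top panel (0.15 and 0.16).

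The rRNAs build the 2 subunits of the mitochondrial ribosome. In CPM (counts scaled to library size, after TMM), mt-Rnr1 was at 1685, 852 and 1912 in CON, 1695, 2594 and 2716 in DNP and 1218, 2577 and 1778 in BAC. The groups overlapped, and its log2 fold change in DNP versus CON was 0.66 ± 0.37 (SE, adjusted p = 0.541). mt-Rnr2 was at 2671, 1665 and 3077 CPM in CON, 3232, 3890 and 4058 in DNP and 2160, 4088 and 3225 in BAC. Its DNP values were all above those of CON, with a log2 fold change of 0.59 ± 0.30 (adjusted p = 0.486). The 2 rRNAs took 5.86% to 9.04% of mitochondrial counts in CON, 7.38% to 10.2% in DNP and 5.97% to 9.02% in BAC. The lowest shares, 5.86% and 5.97%, were those of CON replicate 2 and BAC replicate 1, the 2 libraries with the most counts on cerebellar marker genes. The submitters removed reads of ribosomal RNA before alignment, and whether that step reached the mitochondrial rRNAs is not stated, so these levels cannot be set against those of the mRNAs.

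Complex I, NADH dehydrogenase, passes electrons from NADH into the chain, and mitochondrial DNA encodes 7 of its core subunits. mt-Nd1, part of the membrane arm next to the quinone site, was at 4529, 3674 and 4636 CPM in CON, 5987, 6130 and 5977 in DNP and 4888, 6118 and 5135 in BAC. Its DNP and BAC values were above all CON values, with a log2 fold change of 0.49 ± 0.17 in DNP versus CON (adjusted p = 0.376). mt-Nd3 was at 190, 168 and 271 CPM in CON, 304, 323 and 295 in DNP and 252, 338 and 289 in BAC, with a log2 fold change of 0.55 in DNP versus CON. mt-Nd2 and mt-Nd4, 2 proton-pumping subunits, had log2 fold changes of 0.36 and 0.38 in that comparison, without overlap. mt-Nd5, the longest of the 13 mRNAs, was at 4469, 3178 and 4378 CPM in CON, 5059, 4121 and 4294 in DNP and 4115, 5337 and 4229 in BAC. The groups overlapped, and its log2 fold change of 0.16 ± 0.20 (adjusted p = 0.810) was among the 2 smallest of the 13 mRNAs. The smallest was that of mt-Nd4l, which shares a bicistronic mRNA with mt-Nd4, at 0.15 ± 0.16 (adjusted p = 0.772), with 465, 409 and 544 CPM in CON and 582, 515 and 475 in DNP. mt-Nd6, whose mRNA comes from the light strand, was at 1029, 687 and 1013 CPM in CON, 1165, 1250 and 1305 in DNP and 1039, 1367 and 1085 in BAC. Its log2 fold change of 0.45 ± 0.20 (unadjusted p = 0.0530, adjusted p = 0.450) was of the size of those of the heavy-strand mRNAs. Strand was not kept, so reads of heavy-strand RNA anywhere along mt-Nd6 would count for it. Where the ends of mt-Nd6 and mt-Nd5 lie opposite each other, reads would count for either. The fold change of mt-Nd6 may therefore not be that of its light-strand mRNA alone.

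Complex III has 1 subunit encoded in mitochondrial DNA, cytochrome b. Its gene, mt-Cytb, was at 5982, 4944 and 5947 CPM in CON, 7184, 7750 and 7375 in DNP and 6328, 8280 and 6289 in BAC, so both diabetic groups were above CON throughout. Its log2 fold change in DNP versus CON was 0.40 ± 0.18 (unadjusted p = 0.0537, adjusted p = 0.452). mt-Cytb lies outside the copied stretch.

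Complex IV, cytochrome c oxidase, reduces oxygen, with a catalytic core of 3 mitochondrially encoded subunits. mt-Co3 was at 2455, 1909 and 2353 CPM in CON, 3266, 3577 and 3305 in DNP and 2809, 3446 and 2911 in BAC. It had the largest fold change of the 13 mRNAs in DNP versus CON, 0.60 ± 0.17 on the log2 scale (unadjusted p = 0.00670, adjusted p = 0.327 in edgeR, adjusted p = 0.0235 in DESeq2). In BAC versus CON its log2 fold change was 0.45 ± 0.17 (adjusted p = 0.628 in edgeR and 0.225 in DESeq2). mt-Co2, which binds cytochrome c, had a log2 fold change of 0.42 in DNP versus CON and mt-Co1 one of 0.36 (adjusted p = 0.421 and 0.500), both with DNP above CON in every library. The copy Gm28437 had a log2 fold change of 0.63 where mt-Co3 had 0.60, and Gm28661 one of 0.48 where mt-Co2 had 0.42.

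Complex V, ATP synthase, takes 2 membrane subunits from mitochondrial DNA, encoded by overlapping genes on 1 mRNA. mt-Atp6, which forms part of the proton channel, was at 3383, 2726 and 3356 CPM in CON, 4259, 4566 and 4419 in DNP and 3903, 5056 and 3640 in BAC. Its log2 fold change in DNP versus CON was 0.48 ± 0.18 (adjusted p = 0.393). mt-Atp8 had a log2 fold change of 0.35 ± 0.18 (adjusted p = 0.512), and its groups overlapped.

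Relative to each other, the protein-coding genes kept nearly the same order by FPKM in every library. Levels between genes are compared as FPKM (counts scaled to gene length and library total), which for the mitochondrial genes uses the length of their single transcript. The length behind the FPKM of 81.1% of 14106 expressed genes exceeded their longest annotated transcript, so no mitochondrial level is set against a nuclear one. mt-Co1 ranked first in all 9 libraries, with a mean of 11409 FPKM, mt-Co2 was at rank 5 in all (4899) and mt-Nd3 last in all (776). mt-Cytb, mt-Atp6 and mt-Nd1, with means of 5826, 5754 and 5459 FPKM, exchanged ranks 2 to 4, and mt-Nd4, mt-Co3 and mt-Nd2 ranks 6 to 8 (3970, 3687 and 3442). mt-Nd5, mt-Nd6, mt-Atp8 and mt-Nd4l filled ranks 9 to 12 in varying order, with means of 2380, 2124, 2084 and 1713. Each pair of neighbours within these runs changed order in at least 1 library, except that mt-Atp8 was above mt-Nd4l in all 9. mt-Atp8 and mt-Atp6 lie on 1 mRNA, yet had means of 2084 and 5754 FPKM. mt-Nd4l and mt-Nd4 also share an mRNA and had 1713 and 3970. The ranks are therefore those of genes by FPKM and not of mRNA molecules. The levels of the genes with a copy on chromosome 1 also depend on how reads were assigned between the loci.

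**Figure D4:**
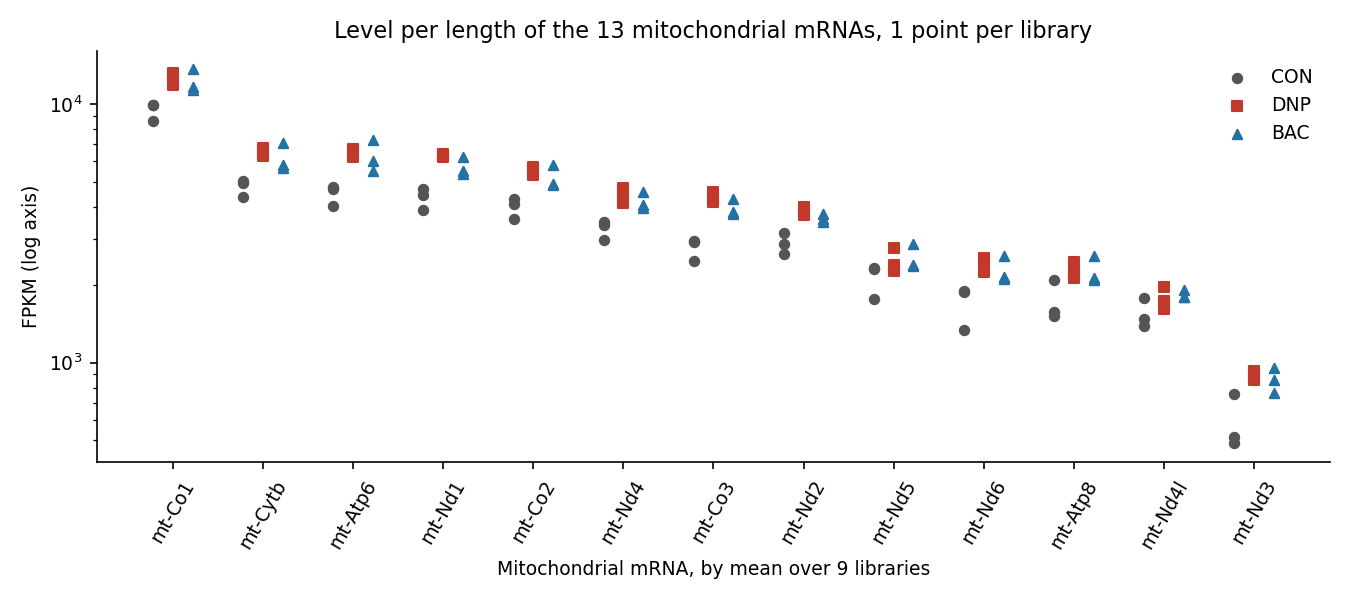
FPKM on a log axis of the 13 protein-coding mitochondrial genes, ordered by their mean over 9 libraries, with 1 point per library (circles CON, squares DNP, triangles BAC). The span from mt-Co1 (mean 11409) to mt-Nd3 (776) is wider than the gap between groups for each gene.

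The composition of the mRNA pool, read as shares of the summed counts of the mitochondrial mRNAs, differed little between groups. Complex I mRNAs took 36.9% to 38.2% of mitochondrial mRNA counts in CON, 35.9% to 37.4% in DNP and 36.1% to 37.2% in BAC. Complex IV mRNAs took 42.4% to 43.3% in CON, 42.0% to 44.0% in DNP and 42.8% to 43.7% in BAC. The share of mt-Co3 was 4.87%, 4.74% and 4.71% in CON, 5.30%, 5.64% and 5.56% in DNP and 5.30%, 5.14% and 5.38% in BAC, so that all 6 diabetic libraries were above CON. The share of mt-Nd1 was 8.99% to 9.27% in CON, 9.67% to 10.1% in DNP and 9.13% to 9.50% in BAC, with DNP above both other groups. mt-Atp6 was higher in DNP (6.92% to 7.44%) than in CON (6.71% to 6.77%). For the other 10 mRNAs the shares of DNP and CON overlapped. mt-Nd5 ranged most, from 6.50% in DNP replicate 2 to 8.87% in CON replicate 1. These shares were not tested. All of them depend on how reads were divided with the nuclear copies, since the 8 mRNAs at least partly in the copied stretch enter every total.

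The tRNA genes gave few counts, 0.341% to 0.434% of mitochondrial counts in a library, or 2055 to 4084 in all. Of the 21 tested, all 21 had a higher fitted level in DNP than in CON, with a median log2 fold change of 0.52. mt-Tl1, a leucine tRNA gene between mt-Rnr2 and mt-Nd1, had 444, 284 and 332 counts in CON, 574, 568 and 530 in DNP and 349, 437 and 567 in BAC. Its log2 fold change in DNP versus CON was 0.66 ± 0.19 (unadjusted p = 0.00753, adjusted p = 0.327), with every DNP library above CON. The largest fitted change, 0.92 ± 0.37 for mt-Tf, rested on 5 to 12 counts per library. Levels of different tRNA genes spanned from a mean of 7.94 FPKM for mt-Tf, the phenylalanine tRNA at the start of the heavy-strand precursor, to 1024 FPKM for mt-Te, the glutamate tRNA of the light strand next to mt-Nd6. After mt-Te, the highest means were those of mt-Tl1 (414), mt-Tc (368), mt-Tn (284) and mt-Ty (219). Of these, mt-Tc, mt-Tn and mt-Ty lie with mt-Ta in a run of light-strand tRNA genes between mt-Tw and mt-Co1. Mature tRNAs carry no poly(A) tail and are shorter than a read pair, so these counts may hold reads of precursors or neighbours, and they are no measure of mature tRNA. The sequences of the highest and the lowest are shown to give their length and base composition, in the sense of the tRNA:
mt-Te (chrM:14071-14139, minus strand): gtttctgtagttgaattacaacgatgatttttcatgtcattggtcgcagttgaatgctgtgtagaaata
mt-Tf (chrM:1-68, plus strand): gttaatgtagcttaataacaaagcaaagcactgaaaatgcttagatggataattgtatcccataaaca

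**Figure D5:**
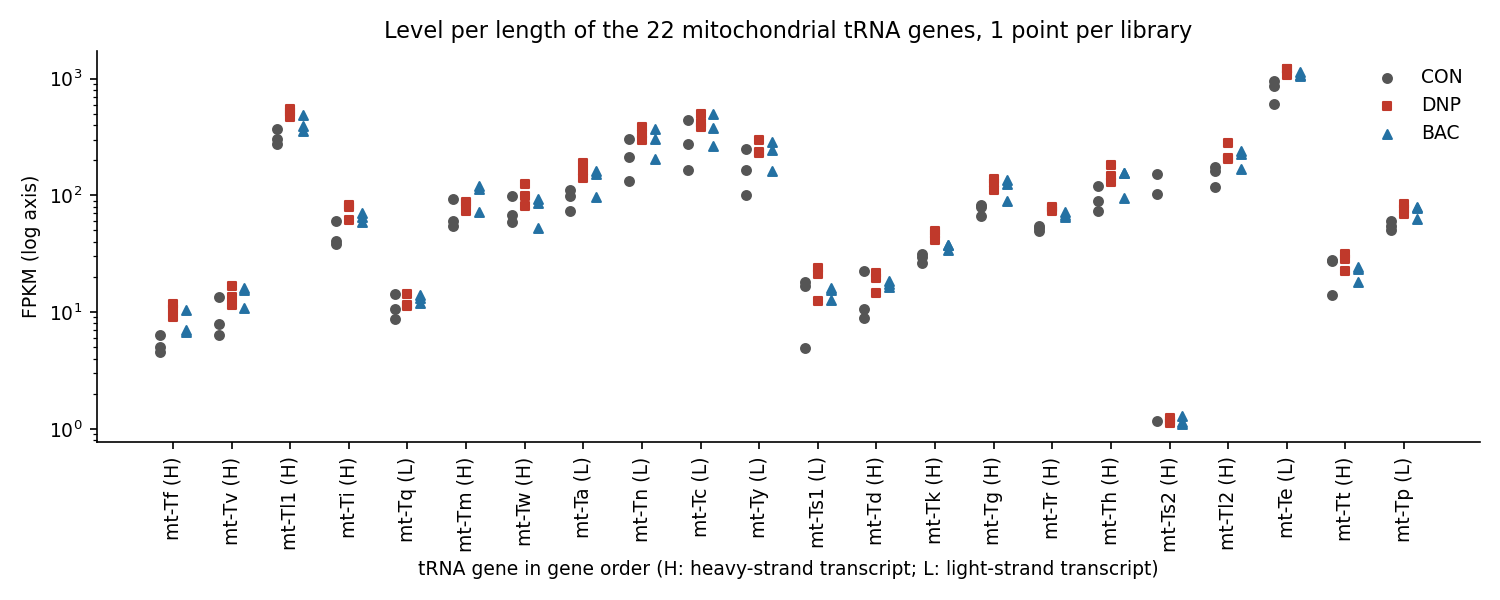
FPKM on a log axis of the 22 mitochondrial tRNA genes in gene order, with 1 point per library (circles CON, squares DNP, triangles BAC). mt-Te is highest (mean 1024), and mt-Ts2 is near 1 in 7 libraries and above 100 in 2 CON libraries.

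mt-Ts2 was the 1 mitochondrial gene below the filter on low counts. It had 145, 84 and 1 counts in the CON libraries and exactly 1 count in each of the 3 DNP and 3 BAC libraries. The CON values therefore ran from the level of the diabetic groups to far above it, and the group mean describes none of them. Without CON replicate 3 the gene passed the filter and was called lower in the 3 comparisons with CON. It was also tested without the filter, without any 1 of the DNP or BAC libraries, and without the 3 libraries with brainstem markers, and in those fits, which keep CON replicate 3, it did not pass the adjusted threshold. Its neighbours did not share this pattern. mt-Th had 129, 68 and 88 counts in CON and 84 to 170 in the diabetic groups, and mt-Tl2 had 197, 116 and 169 in CON and 157 to 277 in the diabetic groups. mt-Ts2 shares its last base with the first base of mt-Tl2, and both are shown because the shared base (chrM:11671, in capitals) puts reads of this junction on 2 genes:
mt-Ts2 (chrM:11613-11671): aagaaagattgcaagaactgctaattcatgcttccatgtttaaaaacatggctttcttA
mt-Tl2 (chrM:11671-11741): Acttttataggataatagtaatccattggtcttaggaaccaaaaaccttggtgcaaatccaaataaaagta

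The comparison of BAC with DNP asks what baclofen added in diabetic mice. Of the 36 mitochondrial genes, 32 had a lower and 4 a higher fitted level in BAC, with a median log2 fold change of -0.14, against -0.01 over all genes. The median was -0.037 without BAC replicate 1 (13 of 37 higher) and -0.23 without BAC replicate 2 (3 of 37 higher). Without the 3 libraries with brainstem markers, BAC replicate 2 was the only BAC library, and the direction turned, with 24 of 37 higher and a median of 0.045. With all libraries, none of the 36 passed the adjusted threshold, as for all genes (0%), and the smallest adjusted p was 0.998 in edgeR. At an unadjusted p under 0.05 no mitochondrial gene was higher, where 1.37% of all genes were, and none was lower, where 1.00% were. The BAC values lay below the DNP values for 2 genes, mt-Tk and mt-Tr, against 3.41% of all genes. DESeq2 also called none of the 36, where it called 0.0216% of all genes higher and 0.0162% lower. The log2 fold changes of the 13 mRNAs ran from -0.16 for mt-Nd1 to 0.02 for mt-Nd4l, with SEs of 0.16 to 0.20, so shifts of this size in either direction are within the error.

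In BAC versus CON, 34 of the 36 had a higher fitted level and 2, mt-Tw and mt-Tt, a lower one. The median log2 fold change was 0.33, against -0.02 over all genes. It was 0.50 without the 3 libraries with brainstem markers, where BAC replicate 2 was the only BAC library. With all libraries, none of the 36 passed the adjusted threshold (0% of all genes). At an unadjusted p under 0.05, 3 were higher (mt-Co3, mt-Nd3 and mt-Tg), against 4.46% of all genes, and the number higher was 1 without CON replicate 2, 5 without CON replicate 3 and 1 without BAC replicate 2. DESeq2 called none, where it called 0.346% of all genes higher and 0.195% lower. The BAC values lay above those of CON for 13, against 7.21% of all genes. With DNP and BAC averaged against CON, 36 of 36 were higher, with a median of 0.42. Of these, 12 had an unadjusted p under 0.05, against 6.42% of all genes, and none passed the adjusted threshold in edgeR (0% of all genes). The number higher at an unadjusted p under 0.05 was 4 without CON replicate 2, 6 without BAC replicate 2, and 7 without DNP replicate 2, DNP replicate 3 or BAC replicate 3. For 13 genes all 6 diabetic libraries were above all 3 CON libraries, against 3.82% of all genes. DESeq2 called 1 as higher, mt-Co3 (adjusted p = 0.0189), against 1.05% of all genes. The 3 comparisons with CON share its 3 libraries and are not independent of each other.

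The fold changes were also read for mRNAs inside and outside the copied stretch. In DNP versus CON the median log2 fold change was 0.40 for the 8 mRNAs that lie in it at least in part and 0.40 for the 5 outside, which have no copy on chromosome 1. In BAC versus CON the medians were 0.32 and 0.31.

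Other measurements differed between the same libraries. Counts on nuclear genes fell on shorter transcripts in every DNP library than in any CON library. The mean length of the longest transcript per count, without mitochondrial genes and copies, was 4.92 to 5.06 kb in CON. It was 4.52 to 4.61 kb in DNP and 4.63 to 4.92 kb in BAC, so BAC overlapped CON and lay above DNP. The median length of the 13 mitochondrial mRNAs is 0.784 kb, against 3.41 kb over 14106 expressed genes. Summed CPM of 6 oligodendrocyte markers was 2049 to 2783 in CON, 3540 to 8906 in DNP and 2789 to 9336 in BAC, and that of 5 blood markers was 190 to 205 in CON, 477 to 683 in DNP and 464 to 755 in BAC, with no marker of either list at 0. Both lists were lower in every CON library, as the mitochondrial share was. For oligodendrocyte markers the gap was small: 2789 CPM in BAC replicate 2 against 2783 in CON replicate 1. BAC replicate 2 had the highest mitochondrial share of all libraries (7.23%). Neuronal markers (6 genes, none at 0) were at 4176 to 5337 CPM in CON, 4829 to 5700 in DNP and 4305 to 4628 in BAC. CON overlapped with each diabetic group, while every BAC library was below every DNP library. The libraries, all labelled whole brain, also differed in brain region. Summed CPM of 10 cerebellar markers was 6602 in CON replicate 2 and 3505 in BAC replicate 1 but 190 to 1243 in the others, and 9 markers of brainstem and spinal cord reached 362 to 434 in DNP replicate 1 and BAC replicates 1 and 3 but at most 29.0 elsewhere, with 6 to 8 of the 9 at 0 there. With scores of these 2 regional lists as covariates, the median log2 fold change of the 36 genes in DNP versus CON was 0.20, with 29 higher and 1 at an unadjusted p under 0.05. The 2 added terms leave less to estimate the spread from, which by itself can lower the count at a given p. Region was examined only in that fit, and the part of length, blood and oligodendrocytes in the mitochondrial difference was not tested.

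Nuclear genes that act on mitochondria were read in the same fit, in 6 lists. None of their genes passed the adjusted threshold in edgeR. Of 79 nuclear respiratory chain subunits, which join the mitochondrially encoded ones in the same complexes, 76 were higher and 3 lower in DNP than in CON, with a median log2 fold change of 0.39, against 0.01 over all genes. At an unadjusted p under 0.05, 43 were higher, where 5.71% of all genes were, and none was lower, where 5.46% were. DESeq2 called 9 as higher, against 0.800% of all genes. Cox6c, Cox7a2l and Atp5e had log2 fold changes of 0.57, 0.58 and 0.60. Cox6c was at 67.9, 59.1 and 61.7 CPM in CON, 92.9, 88.1 and 98.2 in DNP and 73.4, 86.2 and 89.6 in BAC. The median length of these 79 genes, 0.994 kb, is close to that of the mitochondrial mRNAs. Of 88 genes of mitochondrial translation, 78 were higher and 10 lower (median 0.24, 13 higher and none lower at an unadjusted p under 0.05, against the same 5.71% and 5.46% of all genes), led by Mrpl52 (0.76), Mrpl13 (0.55) and Mrps6 (0.59), proteins of the mitochondrial ribosome. Of 10 genes that follow mitochondrial mass, all 10 were higher with a median of 0.17. None had an unadjusted p under 0.05, against the same 5.71% and 5.46% of all genes, which is few in a list this short. The 3 with the smallest p, Timm23, Slc25a4 and Vdac3, had log2 fold changes of 0.39, 0.39 and 0.30.

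Another list holds the genes that transcribe and copy mitochondrial DNA. Of 18, 9 were higher and 9 lower in DNP versus CON, with a median log2 fold change of -0.01. None had an unadjusted p under 0.05, where 5.71% of all genes were higher and 5.46% lower. At those shares few genes are expected in lists this short. Tfam, which packages mitochondrial DNA and starts transcription, was at 29.6, 37.4 and 33.4 CPM in CON and 37.4, 29.8 and 35.5 in DNP (log2 fold change 0.03 ± 0.18, adjusted p = 0.966). Polrmt, the mitochondrial RNA polymerase, had a log2 fold change of -0.30 ± 0.18 (adjusted p = 0.564) and Rnaseh1 one of 0.30 ± 0.16 (adjusted p = 0.499). Mterf2 was at 9.82, 10.4 and 10.3 CPM in CON and 1.74, 10.9 and 1.84 in DNP, so that 1 DNP library was above every CON library (log2 fold change -1.08 ± 0.67, unadjusted p = 0.142, adjusted p = 0.577). Of 22 genes of mitochondrial RNA processing and stability, 9 were higher and 13 lower, with a median of -0.04. At an unadjusted p under 0.05, 2 were higher and none lower, against the same shares of all genes. Slirp and Lrpprc encode the 2 partners of a complex that stabilises mitochondrial mRNAs. Slirp was at 9.68, 12.4 and 14.1 CPM in CON, 23.1, 19.5 and 26.5 in DNP and 17.7, 15.0 and 19.1 in BAC, with a log2 fold change of 0.93 ± 0.20 in DNP versus CON (unadjusted p = 0.00133, adjusted p = 0.294 in edgeR and 0.00653 in DESeq2). Lrpprc was at 87.8, 85.5 and 88.4 CPM in CON and 101, 77.2 and 82.4 in DNP, with a log2 fold change of -0.01 ± 0.15 (adjusted p = 0.992). Hsd17b10, part of the enzyme that cuts the 5′ ends of tRNAs, had a log2 fold change of 0.47 and Ptcd1 one of -0.28. Of 11 regulators of mitochondrial biogenesis, 4 were higher and 7 lower, with a median of -0.22. At an unadjusted p under 0.05, 2 were lower and none higher, against the same shares of all genes. Ppargc1b was at 14.4, 25.9 and 18.5 CPM in CON and 11.1, 6.76 and 6.70 in DNP (log2 fold change -1.26 ± 0.39, adjusted p = 0.352), Pprc1 had a log2 fold change of -0.36 and Yy1 one of -0.22. Ppargc1a, the best known of these coactivators, had a log2 fold change of 0.01 ± 0.22 (adjusted p = 0.993). The lists also differed in gene length. The median was 0.994 kb for respiratory chain subunits, 1.985 kb for translation and 2.59 kb for mitochondrial mass. It was 2.59 kb for transcription and replication, 3.14 kb for RNA processing and stability and 4.99 kb for biogenesis regulators. The part of length in the differences between lists was not tested.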

How the data were processed

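Reads were checked with FastQC 0.11.9 and filtered with fastp by the submitters, who also removed ribosomal RNA reads, aligned the rest to GRCm38 with HISAT2 2.1.0 (with Bowtie2 2.3.4.1 named beside it) and quantified genes with StringTie 1.3.3b. The deposited count table holds whole-number counts per gene without normalization. The deposited FPKM table was made by the authors from these counts, and each FPKM equals the count divided by a gene length and the library total, with implied lengths of a gene differing between libraries by a ratio of at most 1.000044 over 14125 genes. The length behind each of the 37 mitochondrial genes is that of the annotated gene.

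Counts were fitted in R 4.3.3 with edgeR 4.0.16 (filterByExpr with a minimum count of 10, TMM, quasi-likelihood test, all 9 libraries in 1 model, Benjamini-Hochberg over 18501 genes, threshold 0.05). The biological coefficient of variation was 36.5%. DESeq2 1.42.0 and limma 3.58.1 on log2(FPKM + 1) or log2(FPKM + 0.1) were alternatives, with other filters and normalization, a replicate block, region scores as covariates and each library left out in turn. On simulated data for DNP versus CON with 200 of 18501 genes changed by 2 on the log2 scale, edgeR recovered 48% (2 false calls) and DESeq2 74.5% (64 false calls). Nuclear copies were searched among GENCODE M21 transcripts with BLAST+ 2.17.0 (at least 95% identity over at least 80% of the length), since no genome sequence was used here. Sequences are those of GENCODE M21 transcripts.

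Each library is a separate mouse, grouped by the labels. All mitochondrial genes could be named, with every nuclear copy of 10 or more counts, the 3 genes of each nuclear list with the smallest p in DNP versus CON, and Tfam, Polrmt, Lrpprc and Ppargc1a. The genes and lists were chosen with earlier results of these data known.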

Additional observations from a re-analysis of the deposited data

How the results depend on the processing

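The number of the 36 mitochondrial genes past the adjusted threshold was 0 in all 4 comparisons with edgeR. DESeq2 gave 1 (mt-Co3) in DNP versus CON and in DNP and BAC versus CON. With each library left out, none of the 36 passed. Counting mt-Ts2, which enters the test in some of these fits, the number ranged from 0 to 1 in the 3 comparisons with CON, since mt-Ts2 passed, as lower, without CON replicate 3 and in no other of these fits.

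Counts at an unadjusted p under 0.05, here in either direction and over all mitochondrial genes tested (37 with mt-Ts2 in some fits), depended on the settings. In DNP versus CON (15) they were 9 with only the groups compared, 1 with region scores as covariates, 5 without the 3 libraries with brainstem markers, and 5 to 16 with a library left out. Over all 18 alternatives, the counts in DNP versus CON ran from 1 to 22. In BAC versus DNP (0) they were 1 with limma on log2(FPKM + 1), 1 with log2(FPKM + 0.1) and 1 with the covariates. In BAC versus CON (3) they were 5 with DESeq2, 13 with library totals only, 5 with no filter, 0 with only the groups compared, 13 and 11 with limma at the 2 pseudocounts, 1 with the covariates, and 1 to 6 with a library left out. In DNP and BAC versus CON (12) they were 22 with library totals only, 24 and 22 with limma, 1 with the covariates, and 4 to 16 with a library left out.

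With the covariates the median log2 fold change was 0.20 in DNP versus CON, 0.17 in BAC versus CON and 0.18 in DNP and BAC versus CON. Leaving out the 3 libraries with brainstem markers keeps BAC replicate 2 as the only BAC library. The median was then 0.045 in BAC versus DNP (-0.14 with all libraries) and 0.50 in BAC versus CON. The difference in mitochondrial share of counts, in percentage points, was 1.84 for DNP and 1.47 for BAC against CON, 1.65 for both against CON and -0.38 for BAC against DNP. As a share of summed FPKM it was 3.39, 2.98 and 3.19 in the 3 comparisons with CON, and with the nuclear copies added it was 2.45 in DNP versus CON and 2.20 in DNP and BAC versus CON. Without the 3 libraries, and so with BAC replicate 2 alone, it was 0.37 for BAC against DNP, the opposite direction, and 2.27 for BAC against CON. The causes were not tested. No alternative moved the rRNA, complex I or complex IV shares by more than 1 SD between libraries of a group, and none of these added the nuclear copies.

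The replicate numbers were taken to name mice only. Deviations of same-numbered libraries from their group means correlated with r from -0.58 to 0.56, and those of differently numbered libraries with r from -0.70 to 0.61. Deviations within a group of 3 cancel, so these values cannot show whether same-numbered libraries share a batch. With a replicate block, 8, 0 and 6 genes had an unadjusted p under 0.05 in DNP, BAC, and DNP and BAC versus CON, and the block changed no other call. With 3 mice a group and all libraries, no mitochondrial gene passed the adjusted threshold in edgeR. Whether these libraries can resolve differences of the size seen here was not tested. The tRNA genes with under 20 counts are also limited by counting.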
